A study of Drosophila melanogaster with 12 samples.

Results

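The genes described here are 81 Drosophila melanogaster genes known in the deposited table only by a CG number, the provisional name of a predicted gene, whose RNA was lower in larval fat bodies labelled svp RNAi than in control fat bodies on both of the diets studied. They were chosen from the 4632 CG-named genes among the 9367 genes kept. A gene was taken when the log2 ratio of group means, each plus 1, was -1 or less on each diet and when the highest library labelled svp RNAi lay below the lowest control library on each diet. The expression values thus chose the genes, and their differences between genotypes are given as a description, with no test. The libraries did not overlap in this direction on either diet in 5.31% of CG-named genes and 5.34% of all genes. Under the full conditions 82 CG-named genes passed (1.77%), 1 of which the selection leaves out by name, and 145 of all genes passed (1.55%). The mirror conditions upward were met by 60 CG-named genes (1.3%) and by 114 of all genes (1.22%).

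The 12 libraries formed 4 groups of 3, all from female larvae at the wandering stage of the third instar. Every larva carried UAS-Dcr2 on the X chromosome, which raises the activity of RNA hairpins, and r4-GAL4, a driver of the fat body. The control genotype came from a cross to VDRC stock 60100, and the other genotype from a cross to stock 100762, which holds a UAS hairpin against seven-up (svp). Larvae of each genotype ate a diet with 0.15 M sucrose, called the control diet here, or 1 with 0.7 M sucrose, called high sugar. Nothing in the labels tells whether replicate libraries are separate cultures, so a p-value measures only the spread between these libraries, which may be technical.

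Seven-up is an orphan nuclear receptor of the COUP-TF family, a group of transcription factors that mostly repress their targets. The larval fat body stores fat and glycogen, makes most proteins of the blood, detoxifies, and answers infection, so that it stands in for both liver and adipose tissue. A CG number says only that a gene was predicted from the genome sequence. Since the deposited table was made, 29 of the 81 have received another symbol in RefSeq (assembly Release 6), and 52 still go by their CG number. Of the 81, 80 are annotated as protein coding and 1, CG43166, is now the long noncoding RNA lncRNA:CR43166.

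In the deposited values the RNAi target went against the label. The normalized abundance of svp on the control diet was 516, 477 and 373 in control and 1658, 1664 and 1350 in libraries labelled svp RNAi, and on high sugar it was 631, 627.5 and 663.5 against 1712, 1480 and 2180. Every direction below is therefore that of the libraries labelled svp RNAi, not of a measured loss of svp. Whether reads from the hairpin are counted as svp cannot be told from the table, so the svp values do not show how much intact svp RNA these larvae held. These values are read-like units, adjusted by the authors for library size within each diet and not divided by gene length. The libraries held 4381014 to 6556398 reads over the genes kept, recovered from the deposited values, and no gene of the table was at 0 in any library. Genes that went unread in some library are thus not covered.

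The selection required a ratio of -1 or less on each of the 2 diets, so the size of the fall is a description. The median log2 ratio of the 81 genes was -1.60 on the control diet, with a range from -4.38 to -1.01, and -1.65 on high sugar, with a range from -4.31 to -1.08. The medians over all CG-named genes were 0.03 and -0.01. For 19 genes the ratio was -2 or less on both diets. The fall was larger on the control diet for 35 genes and on high sugar for 46, and the 2 ratios of a gene differed by more than 1 for 7.

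**Figure D1:**
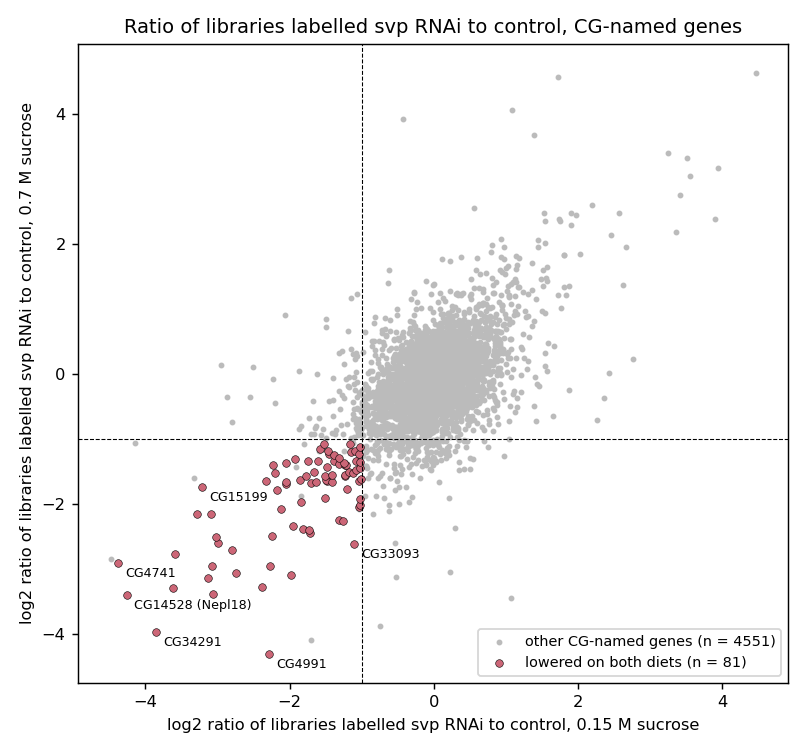
Each point is a CG-named gene, placed by its log2 ratio of libraries labelled svp RNAi to control with 0.15 M sucrose (horizontal axis) and with 0.7 M sucrose (vertical axis). The 81 genes described are coloured, the dashed lines mark the limit of -1, and grey points beyond both lines are genes whose libraries overlapped or that the selection leaves out.

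The 10 genes with the lowest mean ratio were led by CG34291, to which the annotation gives no further name. It was at 509, 496 and 460.1 in the control libraries and at 7.83, 27.5 and 63.3 in those labelled svp RNAi on the control diet. On high sugar it was at 427, 344 and 662 against 19.7, 63.2 and 6.07. The lowest control value was thus more than 5 times the highest of the other group on each diet, while the libraries labelled svp RNAi differed among themselves by about 10-fold.

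CG14528, now Nepl18, encodes a protein of the neprilysin family, zinc metallopeptidases of which the best known cut small peptides outside the cell. Its abundance was 616, 627.5 and 521 against 17.7, 28.5 and 43.6 on the control diet, and 671, 663 and 784 against 28, 143 and 26.4 on high sugar. The ratio was -4.25 on the control diet and -3.40 on high sugar, where replicate 2 labelled svp RNAi stood above the other two. A second neprilysin-like gene, CG14526 (Nepl21), started from a higher value: 1202, 1298 and 1334 in control fell to 170, 97.7 and 184 on the control diet, and 900.3, 1143 and 951 to 84.7, 232 and 68.2 on high sugar.

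CG4741 had the lowest single ratio on the control diet, -4.38, from 51.8, 72.4 and 80.6 to 1.97, 2.52 and 2.47. Its ratio on high sugar was -2.91, from 63.7, 38 and 25.8 to 8.59, 2.47 and 3.31. At values of 2 to 9, the lower group is near the bottom of what this depth can measure. CG4991 had the lowest ratio on high sugar, -4.31, from 468, 477 and 601 to 28.4, 17.7 and 29.2. Its fall on the control diet was smaller, -2.28, from 413, 363 and 198 to 90.8, 62.1 and 44.8, and it is taken up again with the diets.

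Several of the other genes in the lowest 10 now carry the name of an enzyme. CG6188 is Gnmt, the glycine N-methyltransferase, which uses up S-adenosylmethionine and so sets how much methyl donor a cell holds. It was among the most abundant of the 81, at 2379.7, 2559 and 3413 against 204, 374 and 421 on the control diet and at 3846, 2081 and 2899.7 against 163, 529 and 148 on high sugar. CG31414 is Gba1b, a glucocerebrosidase that splits glucosylceramide in the lysosome. Its values were 225, 249.6 and 204 against 10.8, 15.8 and 26.9 on the control diet and 222, 199 and 230.1 against 21.6, 57.8 and 13 on high sugar. CG9542 is KFase, the kynurenine formamidase of tryptophan breakdown, with ratios of -3.12 and -3.14. Its 3 control-diet libraries labelled svp RNAi were close together, at 22.7, 21.8 and 24.8, against 165, 254 and 209 in control.

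CG32667, now ssp7, fell from 313.4, 313.5 and 493 to 8.82, 53.2 and 26.3 on the control diet and from 365, 209 and 350.2 to 9.18, 77.5 and 4.34 on high sugar. CG15068 is BomS6, one of the bomanins, short secreted peptides of the Toll immune response. It was uneven on the control diet, where control libraries held 69.2, 72.1 and 17.3 and those labelled svp RNAi 15.8, 1.39 and 3.92, so that the nearest libraries of the 2 genotypes almost touched. On high sugar the values were 115.4, 157 and 91.5 against 7.44, 26.9 and 6.48, well apart.

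**Figure D2:**
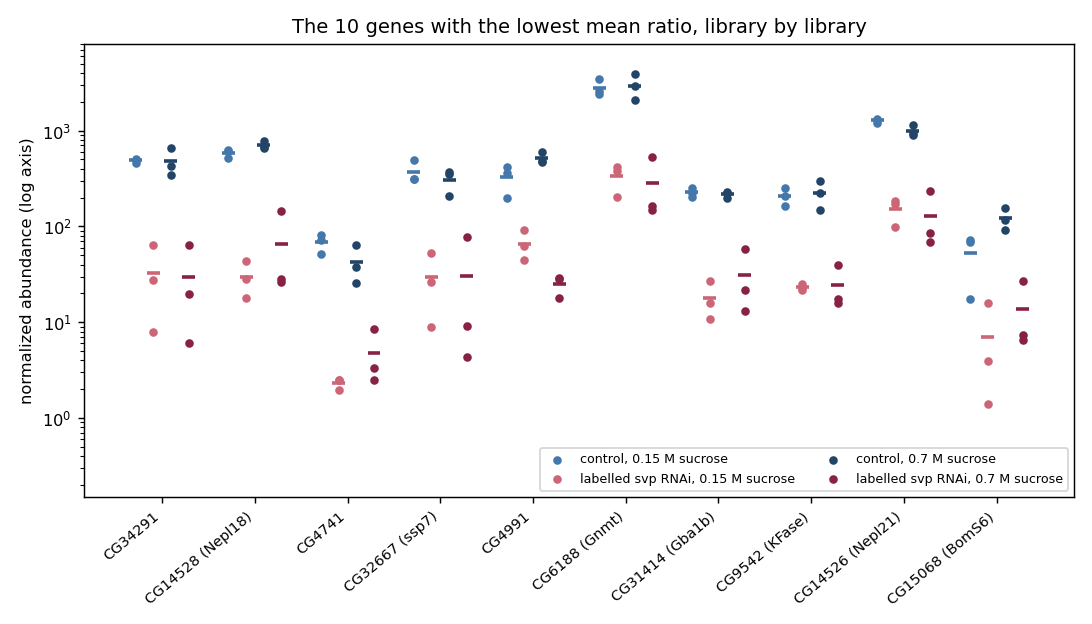
Normalized abundance (log axis) of the 10 genes with the lowest mean ratio, with 1 point per library and a bar at each group mean, for control and for libraries labelled svp RNAi on each diet. In the high-sugar group labelled svp RNAi, 1 library often stands above the other two, as for Nepl18 at 143 against 28 and 26.4.

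Exons of 7 of these 10 genes overlap exons of another annotated gene in the current annotation, and the strand setting of the count is not stated, so reads of such pairs cannot be told apart. They are CG34291, ssp7 and Gba1b, each with an antisense RNA gene, CG4741 with Adck1 and CG42360, CG4991 with CG16700, Gnmt with CG43630 and KFase with Daxx. Nepl18, Nepl21 and BomS6 have no such overlap. Over all 81 genes, 25 overlap another gene, 22 of them on the opposite strand and 4 on the same strand. Such overlaps were not counted over all genes, so these numbers do not set the 81 apart.

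The median of the 81 genes differed less between control libraries than between the genotypes, and the spread between replicates was widest in the group labelled svp RNAi on high sugar. Relative to the control mean of the diet, the median log2 value of the 81 genes was -1.66, -1.76 and -1.63 in the 3 control-diet libraries labelled svp RNAi and -1.79, -1.54 and -1.96 in the 3 high-sugar ones. In the 6 control libraries it ran from -0.15 to 0.17. The median standard deviation of the 81 genes in the group labelled svp RNAi on high sugar was 0.44 (log2), against 0.20 over all genes, and 0.23 against 0.21 in the control-diet controls. Among the high-sugar libraries labelled svp RNAi, replicate 2 was the highest library for 50 of the 81 genes and replicate 3 the lowest for 45. Among the high-sugar controls, replicate 3 was the highest for 48 and replicate 2 the lowest for 50, with medians of 0.17 and -0.15. The 81 genes together took 1.26% to 1.94% of all deposited values in control libraries and 0.47% to 0.67% in those labelled svp RNAi.

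**Figure D3:**
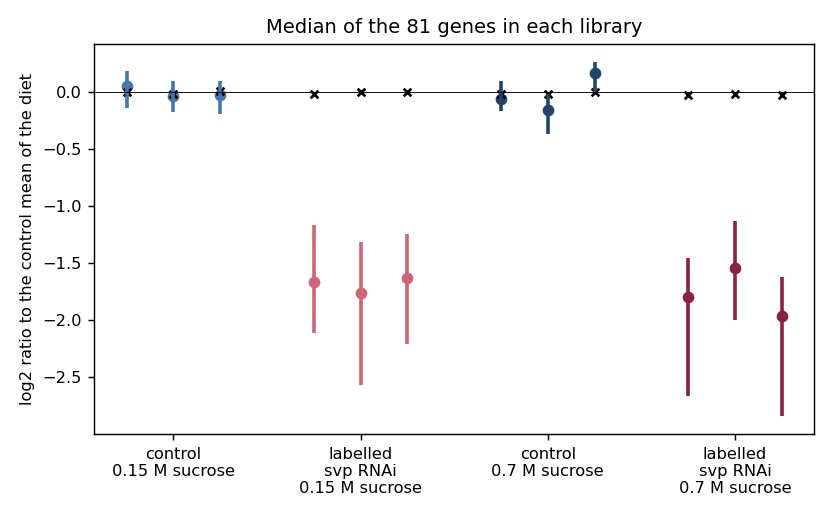
Median (point) and quartiles (line) over the 81 genes of the log2 ratio to the control mean of the diet in each of the 12 libraries, with the median over all genes as a cross. The 6 libraries labelled svp RNAi lie between -1.96 and -1.54, and the crosses lie near 0 in every library.

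The 10 genes with the highest abundance in control were CG2233, CG2444, Miox (CG6910), CG16704, CG10962, Gnmt, CG15369, CG11151, hll (CG4500) and CG5554. Divided by exon length, the highest control level was that of CG2444, at 20581 per kilobase, followed by CG2233 at 14859 and CG16704 at 14370. Gnmt was at 2892 per kilobase and hll at 1112. The median of the 81 genes was 138 per kilobase, and that of all CG-named genes was 28.7. The conditions of the selection favour genes with many reads, since the ratio is taken after adding 1 and the libraries must not overlap.

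CG2233 went from 22500, 21182 and 20045 to 9504, 5579.9 and 9451 on the control diet and from 18553, 21873 and 27794 to 8941, 12342 and 7395 on high sugar, without overlap of the genotypes. CG2444, which has the synonym DIGF-6, went from 17006, 15985 and 14686 to 6468, 4746 and 5649.6 and from 21252, 20362 and 23449 to 7741, 5477 and 7791. These were ratios of -1.38 and -1.499 (log2) on the control diet, moderate beside those of the 10 genes above. Of 6 measured genes with a DIGF synonym, CG2444, CG15203 and CG15199 were among the 81, while CG14132, Vago and CG15201 were not, with ratios from -0.26 to 0.60 on the 2 diets.

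Miox is the myo-inositol oxygenase, which opens the ring of inositol. It was at 4209, 3752.5 and 4045 against 1274, 1083 and 981 on the control diet, and at 5235, 5065 and 8117 against 2047, 1089 and 1547 on high sugar. CG16704 fell from 4583, 4728 and 4918 to 1138, 611 and 1248 on the control diet and from 5150.3, 4176 and 6622 to 926, 1171 and 740.2 on high sugar. hll, or heimdall, encodes an acyl-CoA synthetase of the bubblegum type that activates long fatty acids. Its ratios were -2.17 and -1.78, from means of 2345 and 2561 to 519 and 745. CG10962 and CG15369 had ratios of -1.26 and -2.12 on the control diet and of -2.26 and -2.08 on high sugar.

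Among the other members with a known role, lipid handling is represented by Ldsdh1 (CG2254), a dehydrogenase of lipid droplets, by Apoltp (CG15828), the apoprotein of the lipid transfer particle that loads lipoproteins in the blood, and by Tmlh (CG4335), the hydroxylase that begins carnitine synthesis. Their ratios were -1.32, -1.45 and -1.15 on the control diet and -2.25, -1.23 and -1.20 on high sugar. Apoltp was at 497, 583 and 569 against 211, 203 and 189 on the control diet and at 577, 572 and 575 against 209, 334 and 189.8 on high sugar. Its libraries were close within each group except that last one, where replicate 2 stood above the other two. The sulfite oxidase gene shop (CG7280), of sulfur amino acid breakdown, went from 1664 ± 239 to 586 ± 44.8 on the control diet and from 1312 ± 122 to 440 ± 34.5 on high sugar (SD, n = 3).

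Other members with a known role were not of one kind. Gbp3 (CG17244), a growth-blocking peptide of the family that relays nutrient and immune signals, had ratios of -1.99 and -3.09. On high sugar it was at 1489.7, 1376 and 1770 in control and at 116, 319 and 106 in libraries labelled svp RNAi. The gene bdl (CG16857), for the immunoglobulin-type surface protein borderless, had ratios of -2.06 and -1.70. MtnF (CG43222), a small metal-binding metallothionein, fell from 29.2, 27.8 and 21.4 to 6.91, 2.26 and 11.1 and from 21.5, 37.2 and 21.6 to 2.79, 6.78 and 3.35. Of 4 metallothionein genes measured 2 are CG-named and could be chosen, and 3 of the 4, MtnF included, had ratios below 0 on both diets, while MtnA was above 0 on both. The medians of the 4 were -0.73 and -1.09. Of 6 bomanin genes measured 4 are CG-named, and BomS6 is the one among the 81. Ratios of 5 of the 6 were below 0 on both diets, with medians over the 6 of -0.99 and -0.91.

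Of 139 measured genes with a serine protease or protease homolog synonym 86 are CG-named and could be chosen, and 4 were: CG33225 (SPH236), CG8299 (SP65), CG14780 (SP95) and CG9673 (SPH81). CG33225 fell from 287.5, 202 and 216 to 49.3, 47.9 and 46.2 on the control diet and from 313, 315 and 324 to 52.1, 42.8 and 25.1 on high sugar, while the other 3 were at 62 or less in every library. The median ratio of the 139 was -0.06 and -0.07 on the 2 diets. The gene psh, for the protease Persephone of the Toll pathway, was kept out by its name, and had ratios of -2.86 and -2.45 without overlap of the genotypes. Root (CG6129), the homolog of the ciliary rootlet protein rootletin, fell from 339, 331 and 341 to 31.6, 23 and 61.2 on the control diet. Vps53 (CG3338), of the complex that tethers vesicles at the Golgi, was lower by -1.24 and -1.37, and Ekar (CG9935), a kainate-type glutamate receptor, by -1.03 and -1.23 from control means of 15.4 and 15.9.

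The neprilysin family was the largest family by name, a grouping made after the members were known. RefSeq lists 26 genes named Nep or Nepl with a number, 23 of them were measured, and 9 were among the 81: Nepl18, Nepl21, Nepl13 (CG4725), Nepl20 (CG14527), Nepl10 (CG8550), Nep6 (CG3775), Nepl14 (CG4723), Nepl19 (CG14523) and Nep7 (CG5527). Nepl13 went from 216, 229 and 276 to 12.8, 30.3 and 43.6 on the control diet and from 290.4, 239 and 318 to 22.4, 107 and 17.9 on high sugar. Nep7, whose mean of the 2 ratios was the closest to 0 among the 9, went from 44.3, 31.4 and 44.1 to 20.7, 13.3 and 12.2 and from 66.1, 38 and 63.6 to 23.6, 26.5 and 16.8. Nepl10 was nearly alike on the 2 diets, with ratios of -1.63 and -1.66 and libraries labelled svp RNAi between 79.7 and 114.

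The other 14 measured members of the family are given as values only, since 10 of them are CG-named genes that the same genotype ratios kept out, and the family was singled out after the 81 were known. Nepl6 (CG42370) came close to the limit, with ratios of -1.03 and -0.73. Nep2, which is not CG-named in the table, had ratios of -0.66 and -0.97. Nepl3, Nepl4 and Nepl12 had ratios above 0 on both diets, and those of Nepl12 (CG8358) were 3.55 and 3.05. The median ratio over the 23 genes, the 9 chosen ones included, was -0.86 on the control diet and -0.97 on high sugar.

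**Figure D4:**
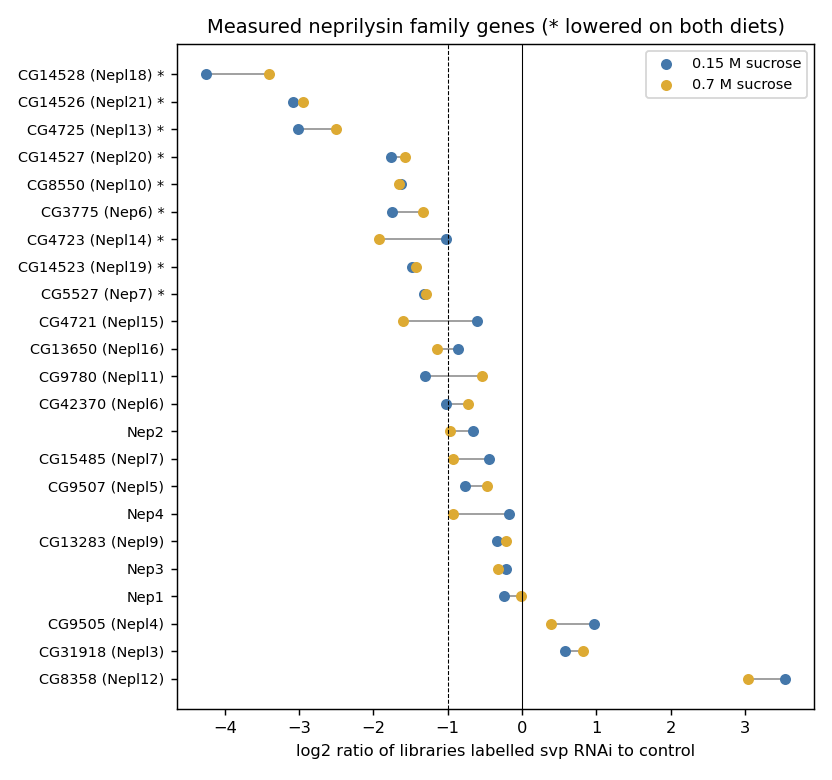
Log2 ratio of libraries labelled svp RNAi to control for the 23 measured neprilysin family genes, on 0.15 M sucrose and on 0.7 M sucrose, with the 9 genes of the selection starred and dashed at the limit of -1. The genes run from Nepl18, at -4.25 and -3.40, to Nepl12, at 3.55 and 3.05.

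Some of the 81 lie next to each other in the genome, which was not counted for other genes and so does not set the 81 apart. In the current annotation 12 of them form 5 runs in which no other protein-coding gene stands between. The longest, on arm 3R, holds Nepl18, Nepl19, Nepl20 and Nepl21, with ratios on the control diet of -4.25, -1.48, -1.77 and -3.08. The protein-coding gene on one side of it, Doa, had ratios of 0.07 and 0.19, and on the other, beyond Nepl17, which was not analysed here, CG33203 had ratios of -1.53 and -1.16 at means from 3.43 to 11.8. Nepl13 and Nepl14 are also adjacent on 3R, with Nepl15 next to them at -0.61 and -1.60 and CG7029 on the other side at 0.04 and 0.61. Near-identical copies could share reads, and the way such reads were counted is not stated.

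CG6503 and CG34291 are neighbours on 3R. CG6503 was low, at 28.5, 20.1 and 14.3 against 1.97, 1.66 and 1.63 on the control diet and at 31, 25.3 and 46.1 against 3.75, 10.03 and 0.65 on high sugar. The neighbours ssp7 and CG15199 on the X had ratios of -3.62 and -3.21 on the control diet and of -3.30 and -1.73 on high sugar, and both overlap the same antisense RNA gene. The last pair, CG16704 and CG3513 on 2L, had ratios of -2.25 and -1.02 on the control diet and of -2.49 and -1.35 on high sugar. Over the chromosome arms, 28.4% of the 81 were on 3R and 22.2% on the X, where 25.2% and 17.1% of CG-named genes lie. The small chromosome 4 held 2 of the 81 (2.47%), CG1909 and Ekar, and 0.52% of CG-named genes.

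The 81 genes were somewhat shorter than the CG-named genes at large, with a median of 1420 exon bases in 3 exons against 1885 in 4, and 326 codons (n = 80) against 427. The range was wide, from 40 to 4333 codons. Control means ran from 4.91 to 21991, with 17 above 1000 and 6 below 20. Just inside the limit were Nepl14, CG3513 and CG14780, whose weaker ratios were -1.023, -1.019 and -1.009, and just outside it CG42784, Adk2 (CG11255) and Hasp (CG10186), with -0.998, -0.995 and -0.992. CG14780, at means of 6.89 and 2.92 on the control diet, is among the least certain of these.

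Markers of some tissues moved with genotype as well, while those of others did not. Of 16 fat body marker genes outside the 81, 8 fell and 0 rose on the control diet and 7 fell and 0 rose on high sugar (limma, adjusted p under 0.05), where 8.56% and 13.4% of all genes were called, with median log2 differences of -0.61 and -0.40. Apoltp, a marker of the same list, is itself among the 81. All 17 muscle markers were measured, and 13 and 8 of them fell. Their summed abundance was 36670 to 48640 against 19680 to 25910 on the control diet and 31270 to 45140 against 21820 to 25940 on high sugar. Of 12 neuron markers 2 fell and 1 rose on the control diet and 7 fell and 1 rose on high sugar. The median log2 differences of these 12 were -0.72 and -1.02, and Syt1 was the gene that rose on each diet. The summed abundance of the 12, in which abundant genes weigh most, was nonetheless higher in libraries labelled svp RNAi. It was 2289 to 2824 against 3869 to 4883 on the control diet and 2510 to 2870 against 3811 to 4884 on high sugar. Of 21 cuticle and epidermis markers 7 were measured. Among these 7, Pcp was the 1 that rose on each diet, and 1 and 2 fell. Their median log2 differences were -0.98 and -0.66, although the sum of the 7 was higher in libraries labelled svp RNAi. It was 3800 to 6027 against 9995 to 14590 on the control diet and 5265 to 6425 against 12490 to 21050 on high sugar. Of 10 hemocyte markers 2 and 4 fell and 1 rose on each diet, and of 11 salivary gland markers 3 and 1 fell and 0 rose. Among 24 testis markers 4 were in the table and among 13 ovary and germline markers 7. The part of these shifts in the ratios of the 81 genes was not tested, and fewer cells of a type cannot be told from less RNA per cell in whole fat bodies.

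The diets were compared within each genotype, a comparison that the selection did not make, although it used the same 12 libraries. The selection also favours genes with many reads, and its demand for no overlap bears on the spread within a group. The median spread of the 81 was nonetheless wider than that of all genes in each group. It was 0.23 against 0.21 (log2) in control-diet controls and 0.44 against 0.20 in the group labelled svp RNAi on high sugar. The shares of calls below are therefore not independent of it, and its part in them was not tested. Here the deposited values were put on 1 scale over the 12 libraries by the median of ratios, and values given for the diets are on that scale. All 81 genes were abundant enough to be tested. In control, 3 of them rose and 1 fell on high sugar (4.94% called, limma adjusted p under 0.05), where 1.85% of all genes were called, 1.23% higher and 0.619% lower. In the libraries labelled svp RNAi 10 rose and 8 fell (22.2%), where 8.68% of all genes were called, 4.79% higher and 3.89% lower. At an unadjusted limma p under 0.05 the share in control was 27.2%, against 15.5% of all genes. In libraries labelled svp RNAi that share was 28.4%, near the 25.6% of all genes. Counted without a test, the diets did not overlap in control for 18 of the 81 in the higher direction (22.2%, against 10.3% of all genes) and for 10 in the lower (12.3%, against 9.98%). For the other genotype this held for 12 (14.8%, against 17.2% of all genes) and for 10 (12.3%, against 13.6%). The median log2 difference was 0.11 in control and 0.06 in libraries labelled svp RNAi, beside 0.00 and -0.01 over all genes, and 62 of the 81 were called in neither genotype. On the scale as deposited, where the median gene was 0.103 (log2) higher on high sugar, calls over all genes were 84.7% higher in control and 78.3% in libraries labelled svp RNAi, against 66.5% and 55.2% on the common scale.

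The gene bdl rose most in both genotypes. In control it was at 68.6, 45.9 and 45.2 on the control diet and at 236, 192 and 209 on high sugar, a 3.99-fold rise (SE 0.28 on the log2 scale, limma adjusted p = 0.0017). In the libraries labelled svp RNAi it went from 6.09, 15 and 14.8 to 60.8, 75.2 and 58.2, a 5.38-fold rise (SE 0.28 on the log2 scale, limma adjusted p = 0.00021). These values separated the diets without overlap in each genotype, and both calls held whichever library was left out. The highest value of bdl in libraries labelled svp RNAi, reached on high sugar, was 75.2, beside 68.6 for the highest control library of the control diet.

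CG5707 rose 2.64-fold in control (limma adjusted p = 0.009), from 66.6, 57.5 and 48.4 to 171, 117 and 176, and 2.34-fold in libraries labelled svp RNAi (limma adjusted p = 0.01), from 17.3, 22.7 and 22.4 to 39.8, 75.8 and 40.8. Its control call ended without high-sugar control replicate 3, at an adjusted p of 0.053. CG3513 rose 2.28-fold in control, from 300.1, 288.5 and 210.2 to 575, 573 and 659 (limma adjusted p = 0.033), and 1.89-fold in libraries labelled svp RNAi, from 162, 71.5 and 156 to 294, 229 and 184 (limma adjusted p = 0.046). The libraries of CG3513 did not overlap between diets in either genotype, yet its calls were the less certain, ending in 6 and in 9 of the 12 fits with a library left out, with adjusted p up to 0.14 and 0.15. The call in libraries labelled svp RNAi also ended with a minimum mean of 10, with quantile normalization and in a fit of the 2 groups alone, at adjusted p up to 0.087. Those 3 genes were the ones called in both genotypes, 75% of the calls in control and 16.7% of those in libraries labelled svp RNAi.

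CG32647 was the member that fell in control on high sugar, from 104, 86.9 and 77.5 to 39.1, 29.9 and 32.5, by 1.37 ± 0.33 (SE) on the log2 scale with a limma adjusted p of 0.049. That call ended in 9 of the 12 runs without 1 library, each of the 6 control libraries among them, and the adjusted p then reached 0.14. It also ended with 0.5 added in place of 1, with the deposited scaling and with the replicate block, at adjusted p up to 0.059. In the libraries labelled svp RNAi, where it was already low, the diets were not called different.

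Among the genes that rose in libraries labelled svp RNAi, Root followed bdl in size, 3.61-fold higher on high sugar (limma adjusted p = 0.015). Its values were 32.6, 23.8 and 63.7 on the control diet and 95.1, 287.5 and 90.5 on high sugar, where replicate 2 was the high one, and its call ended without control-diet replicate 2 labelled svp RNAi, at an adjusted p of 0.057. Nep6 rose 1.79-fold, from 74.4, 98.8 and 77.2 to 139.8, 191 and 123 (limma adjusted p = 0.021), with calls lost at adjusted p up to 0.073 without high-sugar replicate 2 or control-diet replicate 1 or 3 of the same genotype. The others that rose were Tmlh, CG4630, CG11151, CG10311 and CG1648, 1.50-fold to 1.78-fold.

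In libraries labelled svp RNAi, CG34301 had the largest fall of the 81 genes with high sugar, by 1.79 ± 0.37 (SE) on the log2 scale (limma adjusted p = 0.011), from 18.4, 12.1 and 9.2 to 5.5, 1.24 and 3.27. These values are low and the change is the less certain. CG4991 fell by 1.44 ± 0.29 (limma adjusted p = 0.0094), from 93.9, 64.4 and 46.7 to 27.3, 17 and 28.14. Ldsdh1 fell by 1.20 ± 0.17 (limma adjusted p = 0.00093), from 152, 146.5 and 116.5 to 50.8, 57.8 and 70.2. For CG34301, CG4991 and Ldsdh1 the diets did not overlap and the call held without any 1 library.

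Gbp3 fell by 1.21 ± 0.32 (limma adjusted p = 0.032) with overlap between the diets, from 445, 248.5 and 398 to 111.5, 305.4 and 102. The call of Gbp3 ended in 4 of the 12 runs, without high-sugar replicate 1 or 3 or control-diet replicate 1 or 3 labelled svp RNAi, at adjusted p up to 0.14, and in a fit of the 2 groups alone (adjusted p = 0.075). CG14285 fell by 1.06 ± 0.29 (limma adjusted p = 0.035), from 38.7, 57.2 and 29.6 to 26.5, 14.7 and 17.2. Its call also ended in 4 runs, without control-diet replicate 1 or 2 or high-sugar replicate 2 or 3 labelled svp RNAi, at adjusted p up to 0.12, and with quantile normalization, voom or a fit of the 2 groups alone, at up to 0.08. Nepl14, CG3603 and shop were the other members that fell, by 0.84, 0.80 and 0.52 on the log2 scale.

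The number of members called in libraries labelled svp RNAi rested on single libraries in part. It was 9 without high-sugar replicate 3, and 11 without control-diet replicate 1 or replicate 3, all labelled svp RNAi. In control it was 2 without any 1 of the 3 control-diet libraries or without high-sugar replicate 1 or 3.

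**Figure D5:**
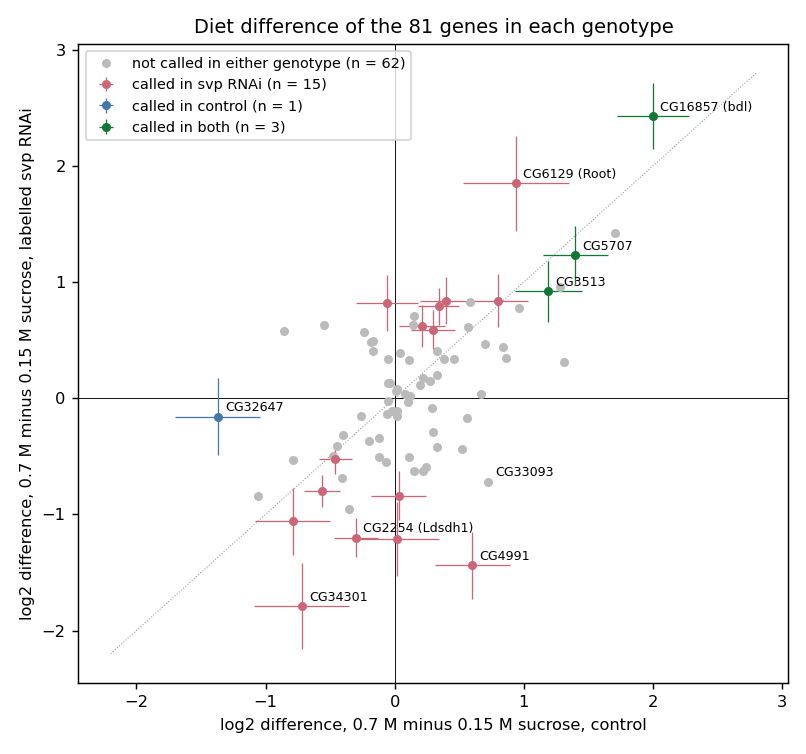
Log2 difference between 0.7 M and 0.15 M sucrose of each of the 81 genes in control (horizontal axis) and in libraries labelled svp RNAi (vertical axis), with standard errors for genes called in at least 1 genotype and a dotted line of equal difference. The gene bdl stands at the upper right, at 3.99-fold and 5.38-fold, CG34301 and CG4991 lie lowest, and 62 genes were called in neither genotype.

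Whether the diets acted differently in the 2 genotypes was tested as an interaction, in which the diet difference of control is subtracted from that of the other genotype. The selection kept out genes that were lower on only 1 diet, so this difference is not independent of it for the 81. It sets no limit on the size of the difference. None of them was called (0 of 81, limma adjusted p under 0.05), where 18 of all genes were (0.192%). At an unadjusted p under 0.05 there were 12 of 81 (14.8%), against 11.8% of all genes, and limma voom on recovered reads also called 0. CG4991 came closest, with an interaction of -2.06 ± 0.41 (SE, limma adjusted p = 0.058). It was called without control-diet replicate 3 labelled svp RNAi (adjusted p = 0.039). The interaction of Gbp3 was -1.25 ± 0.45 (SE, limma adjusted p = 0.32). Over its 20 alternatives it ran from -1.76 to -0.96, with adjusted p from 0.02 to 0.6, and it was called only without high-sugar replicate 2 labelled svp RNAi, at -1.76 ± 0.27 (SE, limma adjusted p = 0.02).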

How the data were processed

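RNA of 12 fat body libraries was analysed from 1 table of 9527 rows. The authors deposited a signal for each gene, which the file names normalized abundance. Per the submitters' processing notes their tools were edgeR, Cufflinks 1.1.0, Bowtie 0.12.7 and TopHat 1.3.2, with build dm3. How reads were assigned to genes, and on which strand, was not found in the sources used here. The values behave as read numbers brought to 1 library size within each diet. Inverting that adjustment gave values within 0.1 of a whole read for 99.84% or more of the genes with means of 12 to 20. Depth was 4381014 to 6556398 recovered reads, which limits genes with few reads most. The 156 rows with repeated names, ignoring case, and 4 bare numbers were left out, leaving 9367 genes, of which 9260 matched RefSeq (Release 6). Symbols came from RefSeq, and exon structure, overlaps and gene order from the BDGP6 annotation of the same assembly, which is not dm3.

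Ratios that chose the 81 genes used the deposited values plus 1. Tests were run with limma 3.58.1 (R 4.3.3), with values as log2(value + 1), an intensity trend, a single model of 4 group means and Benjamini-Hochberg adjustment over all genes, so that differences of low genes are understated. A mean of at least 1 was required and removed none. A call is an adjusted p under 0.05. Diet contrasts used the values divided by joint median-of-ratios factors, after which the median diet difference was -0.008 (log2), and the interaction and genotype contrasts used the deposited values. Genotype contrasts were used only for the tissue marker lists and for the background. The fit was also run on simulated counts with the same spread setting for every gene, and no result here rests on that run.

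The members and the gene lists were chosen with earlier results of these data known. Genes named with values are the 10 with the lowest mean ratio, the 10 most abundant in control, up to 5 called rises and 5 called falls in each diet contrast, the 3 nearest the limit on each side, those adjacent to another member, and members with an annotated role. Alternatives were the pseudocount, a filter on low values, scaling, quantile normalization, a replicate block, voom on recovered reads, a fit of the 2 groups alone and leaving out each library.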

Additional observations from a re-analysis of the deposited data

Results flagged for a closer look

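CG4991 and CG33093 went opposite ways with high sugar in the 2 genotypes, without overlap of the libraries between diets in either, as 75 of all genes did (0.801%). CG4991 was at 431, 382 and 205 on the control diet and at 452, 457 and 576 on high sugar in control, and went from 93.9, 64.4 and 46.7 to 27.3, 17 and 28.14 in libraries labelled svp RNAi. Its rise in control was not called (0.60 ± 0.29 SE on the log2 scale, limma adjusted p = 0.34), while its fall in libraries labelled svp RNAi was (limma adjusted p = 0.0094). The difference between the genotypes was -2.06 ± 0.41 (SE, limma adjusted p = 0.058), and over the 20 alternatives it ran from -2.30 to -1.73 with adjusted p from 0.039 to 0.16. CG33093 rose from 83.2, 67 and 66.4 to 108, 107 and 144 in control and went from 45.9, 24.1 and 28.2 to 18.1, 22 and 16.3 in libraries labelled svp RNAi, where neither diet difference passed the adjusted threshold (limma adjusted p = 0.15 and 0.07). Its difference between the genotypes was -1.45 ± 0.33 (SE, limma adjusted p = 0.12), with adjusted p from 0.092 to 0.33 over the 20 alternatives. Neither passed the threshold of the test over all genes.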

How the results depend on the processing

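The same selection gave 69 genes with 5 in place of 1 added to the means, all of them among the 81, and 79 to 92 when 1 library was left out, with 73 to 81 of the 81 among them. With the values scaled as deposited, high sugar against control diet gave 307 calls and 7 members in control and 1283 calls in libraries labelled svp RNAi, and fitting only the 2 groups gave 11 members there. Adding 5 gave 28 genes for the interaction. Leaving out 1 library gave 103 to 240 genes and 2 to 6 members for diet in control, 286 to 891 and 9 to 17 for diet in libraries labelled svp RNAi, 6 to 30 and 0 to 1 for the interaction, 562 to 872 for the control-diet genotype contrast and 785 to 1355 for that of high sugar. The lowest of these last, 785 and 806, came without high-sugar replicate 3 labelled svp RNAi and without high-sugar control replicate 3. The causes were not tested. Of the log2 differences of named members, 247 under the alternatives kept their direction and call, 47 kept the direction and lost the call, and 0 changed direction.

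Replicate numbers did not pair the libraries: of 18 same-numbered pairs between groups, 1 had a correlation of deviations over 0.1, in a range from -0.146 to 0.136. With the replicate block, diet gave 186 genes and 3 members in control, the call of CG32647 ending, 767 and 16 in libraries labelled svp RNAi, the interaction 25 and 0, and genotype 801 and 1201.

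Depth limits the genes with few reads: of the 81, 6 had a control mean below 20.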
